A study of Mus musculus with 3 samples.

Results

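The 32 genes described here carry out cholesterol synthesis, uptake, efflux, storage and transport. They were taken from a list of named genes. No measured value enters the list, but it was chosen with earlier results of these data known. Of the 32 genes, 29 were measured among 18194 genes with a probe set that the platform annotation names for a single gene. Acat2, Soat1 and Soat2 had no such probe set in the annotation used and are reported as not measured. All values come from 1 group of 3 samples, replicates 1 to 3, of 3T3-L1 adipocytes, a mouse fibroblast line turned into fat cells by a differentiation cocktail, after 2 h with glucose oxidase. This enzyme releases hydrogen peroxide as it oxidises glucose, and was used as a positive control for oxidative stress. The labels call the treated cells insulin resistant adipose cells, although their tissue entry names 3T3-L1 preadipocytes. It is not stated whether separate cultures were used, and the spread between replicates may therefore be technical. No control array entered the analysis, and the values are levels in treated cells that carry no direction of change.

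Cells make cholesterol from acetyl-CoA through mevalonate, farnesyl diphosphate and squalene, and obtain more of it from lipoproteins. When sterols in the endoplasmic reticulum are low, SCAP escorts the transcription factor SREBP2, encoded by Srebf2, to the Golgi for cleavage, and the released factor switches on synthesis genes together with NF-Y and SP1. When sterols are high, the INSIG proteins hold SCAP back. Adipocytes store much free cholesterol, largely at their lipid droplets, and release it through ABC transporters.

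The promoters of 4 mevalonate pathway enzymes and of Insig1 are printed here as examples. As with other members, the 5 transcripts were above background and the windows hold short sequences that SREBP2, NF-Y or SP1 are known to bind. Each is a RefSeq window of 300 bases, from 250 before to 50 after the start site, in GRCm38.p6, written 5′ to 3′ along the gene. The windows are chr13:119690101-119690400 (plus strand) for Hmgcs1, chr5:114444019-114444318 (plus strand) for Mvk, chr8:122443373-122443672 (minus strand) for Mvd, chr13:8885356-8885655 (plus strand) for Idi1 and chr5:28071162-28071461 (plus strand) for Insig1. Capitals mark matches, on either strand, to the sterol regulatory element core TCACNCCAC, the NF-Y box CCAAT, the GC box GGGCGG and the E-box CACGTG.
Hmgcs1: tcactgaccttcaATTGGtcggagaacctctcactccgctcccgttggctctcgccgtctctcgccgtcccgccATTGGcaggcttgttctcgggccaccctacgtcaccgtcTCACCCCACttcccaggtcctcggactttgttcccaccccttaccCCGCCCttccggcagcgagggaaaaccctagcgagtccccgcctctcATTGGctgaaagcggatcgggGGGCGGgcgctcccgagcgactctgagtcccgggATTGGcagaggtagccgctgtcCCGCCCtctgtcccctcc
Mvk: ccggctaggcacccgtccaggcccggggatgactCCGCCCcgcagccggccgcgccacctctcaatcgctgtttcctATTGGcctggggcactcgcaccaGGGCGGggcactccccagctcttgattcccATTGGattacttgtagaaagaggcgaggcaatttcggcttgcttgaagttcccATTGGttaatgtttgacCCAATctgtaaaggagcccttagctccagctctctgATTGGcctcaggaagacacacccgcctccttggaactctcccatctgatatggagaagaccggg
Mvd: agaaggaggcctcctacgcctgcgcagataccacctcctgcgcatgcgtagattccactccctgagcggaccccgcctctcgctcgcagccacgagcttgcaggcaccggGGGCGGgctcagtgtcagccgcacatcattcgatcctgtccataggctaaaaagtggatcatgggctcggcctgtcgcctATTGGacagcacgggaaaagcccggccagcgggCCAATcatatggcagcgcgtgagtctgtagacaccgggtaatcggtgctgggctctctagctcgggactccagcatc
Idi1: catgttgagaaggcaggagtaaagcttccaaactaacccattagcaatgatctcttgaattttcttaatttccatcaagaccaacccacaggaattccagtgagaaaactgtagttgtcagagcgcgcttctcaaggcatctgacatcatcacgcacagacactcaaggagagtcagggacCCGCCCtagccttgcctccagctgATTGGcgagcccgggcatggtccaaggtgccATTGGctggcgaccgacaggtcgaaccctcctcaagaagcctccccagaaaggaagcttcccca
Insig1: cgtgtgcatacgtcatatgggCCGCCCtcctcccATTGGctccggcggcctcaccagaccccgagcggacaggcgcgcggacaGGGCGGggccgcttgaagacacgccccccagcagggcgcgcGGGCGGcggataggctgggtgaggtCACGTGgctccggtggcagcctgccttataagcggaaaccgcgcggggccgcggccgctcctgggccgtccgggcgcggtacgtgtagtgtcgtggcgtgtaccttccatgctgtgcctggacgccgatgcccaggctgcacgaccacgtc

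Among all members, 24 had at least 1 promoter window in the table used, 30 windows in all. The NF-Y box was present in 20 of these 30 windows (66.7%) against 37.4% of all 32851 windows, and in 14 of the 15 synthesis enzymes with a window against 41.1% of all 27025 genes with one. The GC box was present in 26 windows (86.7%) against 35.7% of all windows. The E-box was found in 7 windows (23.3%) against 7.15%. The sterol regulatory element core was found in 1 window, that of Hmgcs1, where it starts at position -137 from the start site, against 1.24% of all windows. These matches describe letters in a short window, and several windows belong to the same gene.

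All 29 measured members were above background. The background limit, a log2 intensity of 7.58, was the 95th percentile of 84 sensory receptor probe sets (olfactory, vomeronasal and taste), and a gene passed if at least 1 of its probe sets exceeded the limit on every array. By the same rule 54.4% of all 18194 genes were above background. Only with the 99th percentile as the limit, at 8.04, did a member fall below, and this was Npc1. Each gene is represented by whichever of its probe sets had the highest mean, and levels of different genes are not comparable because each probe set binds with its own strength.

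**Figure D1:**
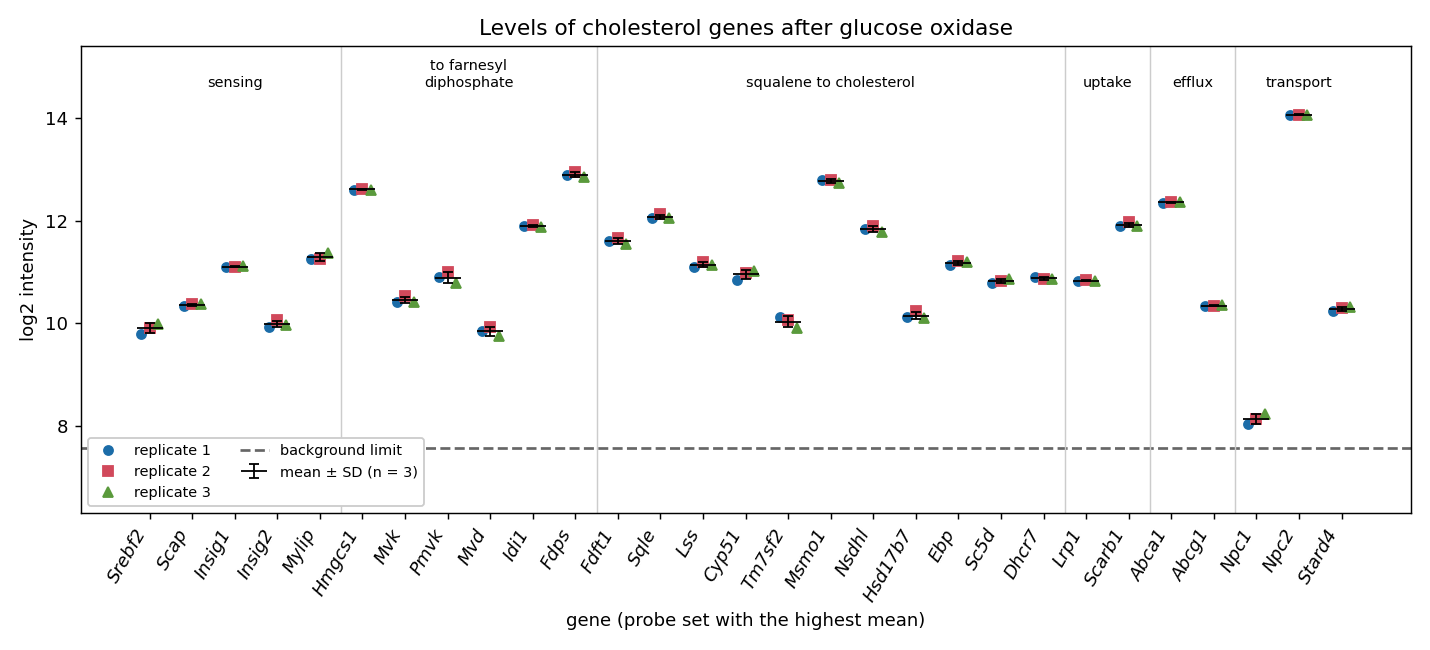
Log2 intensity (y axis) of the 29 measured genes (x axis, grouped by role) after 2 h of glucose oxidase, with a coloured symbol for each replicate, black bars for the mean and SD (n = 3) and a dashed line at the background limit of 7.58. Every gene lies above the line in all 3 replicates and Npc1 lies closest to it. Heights of different genes cannot be compared.

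All 5 regulators of sterol sensing were above background. Srebf2 was at a log2 intensity of 9.80, 9.91 and 9.99 in replicates 1, 2 and 3, with a mean of 9.90 ± 0.10 (SD, n = 3). A second Srebf2 probe set, at 9.63 ± 0.10 (SD, n = 3), was likewise highest in replicate 3. Its escort Scap was at 10.33, 10.38 and 10.37 in the 3 replicates, which lie close together. The transcripts of the retention proteins were both above background. Insig1 was at 11.10, 11.09 and 11.11, one of the smallest spreads among the members. Insig2 was at 9.94, 10.06 and 9.97, highest in replicate 2, and its 3 probe sets were all above background. Mylip, which encodes a ubiquitin ligase that marks lipoprotein receptors for degradation, was at 11.25, 11.25 and 11.37, so replicate 3 stood above the other two.

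All 6 measured enzymes of the path from acetyl-CoA to farnesyl diphosphate were above background, and each was highest in replicate 2. Hmgcs1, which makes HMG-CoA in the cytosol, was at a log2 intensity of 12.60, 12.62 and 12.60, with a mean of 12.61 ± 0.01 (SD, n = 3). The mevalonate kinase gene Mvk was at 10.42, 10.53 and 10.41, and the phosphomevalonate kinase gene Pmvk at 10.89, 10.99 and 10.79. Mvd, which encodes the decarboxylase that forms isopentenyl diphosphate, was at 9.85, 9.92 and 9.76 by a probe set that can cross-hybridise. For these last 3 genes replicate 2 stood apart from the other replicates by more than it did for Hmgcs1. The isomerase gene Idi1 was at 11.90, 11.92 and 11.88, and a second Idi1 probe set was instead highest in replicate 1. Fdps, which joins the isoprenoid units into farnesyl diphosphate, was at 12.88, 12.94 and 12.85.

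The 11 enzymes from squalene to cholesterol were all above background as well. Fdft1, the squalene synthase gene at which the pathway commits to sterols, was at 11.60, 11.67 and 11.54, with a mean of 11.60 ± 0.06 (SD, n = 3). Sqle, which encodes the squalene epoxidase, a rate-controlling oxygen-dependent step, was at 12.05, 12.12 and 12.05. The cyclase gene Lss was at 11.09, 11.19 and 11.14 by a probe set that can cross-hybridise, and at 8.34 ± 0.06 (SD, n = 3) by its other probe set above background. All 3 were highest in replicate 2. Among genes of the steps that remove methyl groups from lanosterol, Cyp51 was at 10.85, 10.98 and 11.02, lowest in replicate 1. Msmo1, a methyl sterol oxidase gene, was at 12.79, 12.79 and 12.73, with replicates 1 and 2 nearly equal. The dehydrogenase gene Nsdhl was at 11.84, 11.90 and 11.78, highest in replicate 2. The sterol ketone reductase gene Hsd17b7 was at 10.12, 10.23 and 10.10, also highest in replicate 2, by a probe set that can cross-hybridise. The other Hsd17b7 probe sets above background were highest in replicate 3. Tm7sf2, a sterol reductase gene, was at 10.12, 10.07 and 9.92, and had the largest SD of the members at 0.11. The remaining genes were the isomerase gene Ebp at 11.18 ± 0.04, the desaturase gene Sc5d at 10.83 ± 0.04 and Dhcr7, which encodes the reductase of the final step to cholesterol, at 10.88 ± 0.02 (SD, n = 3).

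Both measured receptors for lipoprotein uptake and both efflux transporters were above background. Lrp1, a large endocytic receptor for lipoprotein remnants, was at 10.82, 10.85 and 10.83. Scarb1, the receptor for selective uptake from HDL, was at 11.90, 11.97 and 11.90, and all 3 of its probe sets were highest in replicate 2. For the efflux genes the highest probe sets lay close together in the 3 arrays, and their lower probe sets varied more. Abca1, which loads cholesterol onto lipid-poor apolipoproteins, was at 12.34, 12.36 and 12.36. Its other probe sets, also above background, were at 10.09 ± 0.11 and 9.01 ± 0.14 (SD, n = 3). Abcg1, which exports cholesterol to HDL, was at 10.34, 10.34 and 10.36, and by its second probe set at 8.07, 8.20 and 8.20, with an SD of 0.077. Of the genes that move sterol inside the cell, Npc2 encodes a soluble lysosomal sterol carrier. Npc2 was at 14.06, 14.07 and 14.06 and had the smallest SD of the members at 0.0028. Its membrane partner Npc1 was at 8.04, 8.13 and 8.24, and its SD of 0.10 was higher than that of 91.3% of all genes above background. Stard4, a cytosolic sterol carrier, was at 10.24, 10.29 and 10.31.

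The median SD of the members was 0.043 on the log2 scale, equal to a difference of about 3.01%, beside 0.048 for all 9899 genes above background. The SDs ran from 0.0028 to 0.11, and 0 of the 29 members exceeded 0.12, the 95th percentile of all genes above background. Without replicate 2 the median SD of the members was 0.027, while that of all genes above background was 0.043. The order was the opposite without replicate 1, at 0.043 for the members and 0.038 for all genes above background, and without replicate 3, at 0.044 and 0.036.

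Replicate 2 held the highest value for 18 of the 29 members (62.1%), against 35.5% of all genes above background. Replicate 3 was highest for 8 members and replicate 1 for 3, against 40.8% and 23.7% of all genes above background. The 17 measured synthesis enzymes accounted for 12 of the 18, and the other 12 members divided evenly, with 6 highest in replicate 2 and 6 in replicate 3. In 15 of the 17 enzymes replicate 2 was above the mean of the other replicates. The same held for 8 of the 12 other members and for 56.5% of all genes above background. The median excess of the enzymes was 0.070 on the log2 scale, or 4.98%, with a range from -0.029 for Dhcr7 to 0.15 for Pmvk. The median excess was 0.013 for the other members and 0.0096 for all genes above background. Among the 3637 genes with a log2 intensity over 10, 38.6% were highest in replicate 2, against 16 of 25 members. These counts describe 3 arrays of the same group and were not tested.

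**Figure D2:**
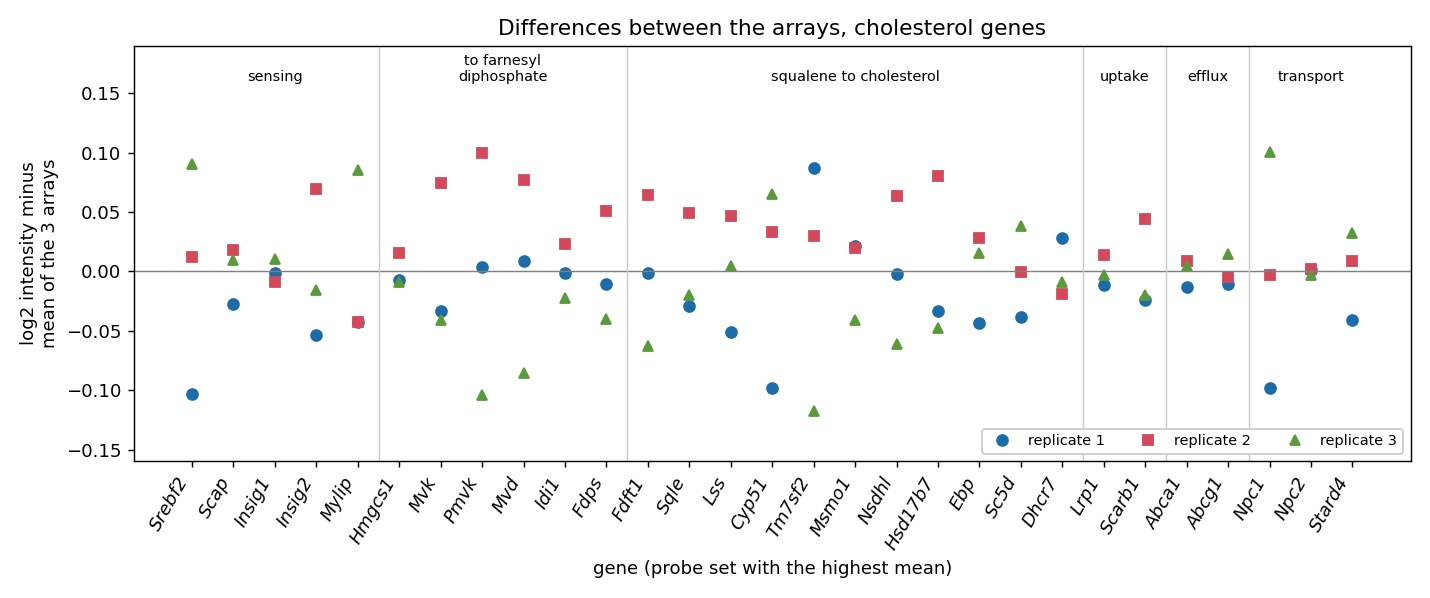
Difference of each array from the mean of the 3 arrays (y axis, log2 intensity) for the 29 measured genes (x axis, grouped by role), with 1 symbol per replicate. Replicate 2 is the highest symbol for all 6 enzymes leading to farnesyl diphosphate and for 6 of the 11 from squalene to cholesterol, and no symbol of any gene lies more than 0.12 from the mean.

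Other measures differed between these arrays too, and their part in the replicate 2 pattern was not tested. The array medians of all genes above background were 9.47, 9.50 and 9.51 in replicates 1, 2 and 3. When each array was centred on that median, 14 of 29 members and 10 of the 17 enzymes were highest in replicate 2, against 31.8% of all genes above background, and the median excess of the enzymes was 0.064. For actin, the 3′ control probe set was 1.70, 1.58 and 1.54 times as bright as the 5′ one, a measure of RNA integrity, and for Gapdh it was 1.11, 1.14 and 1.10 times as bright. Of 10 preadipocyte and fibroblast markers, 7 were highest in replicate 1 and 0 in replicate 2, with a median excess of replicate 2 of -0.081. Their levels stood at 10.50 to 13.91 in the mean of the arrays. Of 10 measured adipocyte markers, 5 were highest in replicate 1, 3 in replicate 2 and 2 in replicate 3.

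The same counts were made for other lipid pathways. Of 15 fatty acid synthesis genes, which include targets of the related factor SREBP1, 5 were highest in replicate 2 and 10 in replicate 3, with a median excess of replicate 2 of -4.9e-05. Of 17 measured fatty acid oxidation genes, 10 were highest in replicate 2 and 7 in replicate 3, with a median excess of 0.046, beside 0.035 for all 29 cholesterol genes. Of the 21 related sterol and isoprenoid genes above background, 6 were highest in replicate 2, with a median excess of 0.0061. The differences between these lists and the cholesterol genes were not tested.

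**Figure D3:**
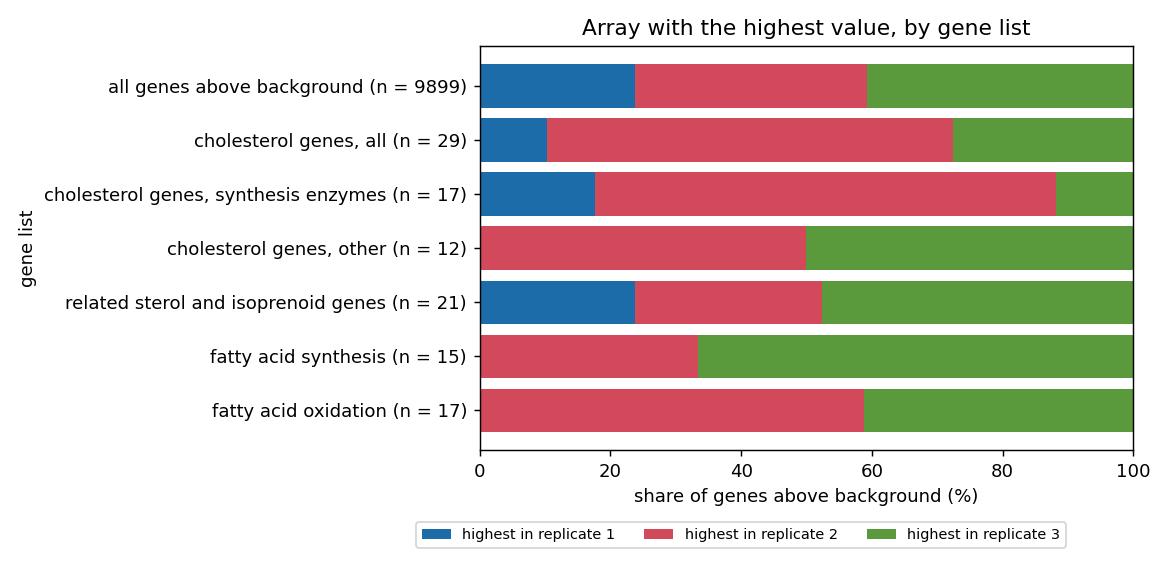
Share of genes above background (x axis, %) whose highest value was in replicate 1, 2 or 3 (colours), for each gene list (y axis, with its number of genes). Replicate 2 holds 12 of the 17 cholesterol synthesis enzymes and 6 of the 12 other cholesterol genes, against 35.5% of all genes above background.

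The 29 genes were covered by 65 probe sets, of which 54 were above background and 11 were not. Of the 54, 32 (59.3%) were highest in replicate 2, against 34% of all 15798 probe sets above background. Probe sets of the same gene read the same RNA, so they add no replicates. Of the 16 members with several probe sets above background, 9 had all of them highest in the same array, and for 6 of these it was replicate 2. Among all 3878 genes with several probe sets above background, 37% had all of them highest in the same array and 10.4% had all of them highest in replicate 2. The 6 were Mvk, Mvd, Fdft1, Lss, Scarb1 and Abca1, named after their values were seen. Some of these margins were very small. A Scarb1 probe set was at 10.9102 in replicate 2 and 10.9085 in replicate 1. An Abca1 probe set was at 10.1561 in replicate 2 and 10.155 in replicate 3. In Mvd, Fdft1, Lss and Scarb1 the agreement includes probe sets that can cross-hybridise. Without such probe sets, only Mvk and Abca1 of the 6 keep several above background. The 3 probe sets of Hsd17b7 above background were split, with 1 highest in replicate 2 and 2 in replicate 3.

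Probe sets of the same gene also differed in whether they were above background. In 10 of the 20 members with several probe sets, at least 1 probe set was not above background, namely in Scap, Hmgcs1, Fdps, Fdft1, Lss, Cyp51, Msmo1, Hsd17b7, Lrp1 and Npc2. The same was true of 76.6% of all 9012 genes with several probe sets, and of 66.6% of the 6298 among them that, like these members, had at least 1 above background. For Fdps the second probe set was at 3.42 ± 0.07 (SD, n = 3), where it gives no level for the gene. Hmgcs1 had 4 probe sets between 11.85 and 12.61 and another at 6.41. Lrp1 was at 10.83 ± 0.01 (SD, n = 3) by its probe set above background, and its other one was below the limit. Of the 11 probe sets not above background, 7 were annotated with a different sequence record from the gene's highest probe set, 1 with the same record and 3 had no record listed for comparison. Among the 25 lower probe sets that were above background, 7 had a different record, 12 the same and 6 had none listed. Probe sets can read different transcript ends, and which transcripts these read was not tested.

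**Figure D4:**
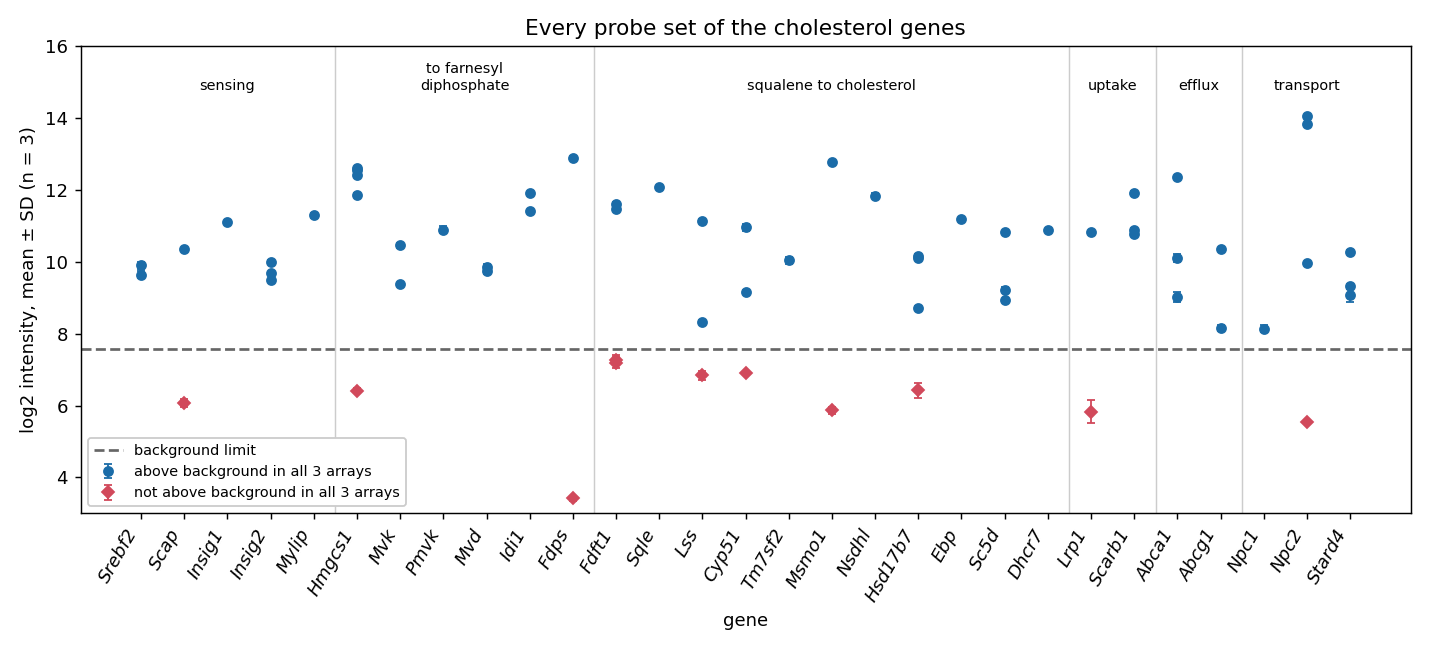
Mean log2 intensity with SD (y axis, n = 3) of all 65 probe sets of the 29 measured genes (x axis, grouped by role). Circles are the 54 probe sets above background in all 3 arrays, diamonds the 11 that are not, and the dashed line is the background limit at 7.58. Each gene has at least 1 circle, and 10 genes have a diamond too.

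Further genes of sterol handling gave a mixed picture of presence. By the same limit, 54.4% of all 18194 genes were above background. Of 28 measured genes from a related list of sterol regulators, isoprenoid enzymes, lipases, sterol carriers and oxysterol enzymes, 21 were above background. Among these were Cav1, the main caveolin of the cholesterol-rich caveolae, at 13.70 ± 0.02, the scavenger receptor gene Cd36 at 13.47 ± 0.02 and Lipe, which encodes hormone-sensitive lipase, at 13.11 ± 0.07 (SD, n = 3). Genes of oxysterol and bile acid synthesis were among the 7 that were not. Ch25h was at 6.41 ± 0.07, Cyp27a1 at 7.25 ± 0.06, Cyp7b1 at 7.16 ± 0.13 and Cyp7a1, the rate-limiting enzyme of bile acid synthesis in the liver, at 7.15 ± 0.06 (SD, n = 3). The other 3 were the sterol transporter gene Abcg5 at 6.40 ± 0.16, the cholesteryl ester hydrolase gene Nceh1 at 6.08 ± 0.09 and Gramd1c at 5.65 ± 0.07 (SD, n = 3).

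The cell type was checked with marker genes. All 10 measured adipocyte markers were above background, including Adipoq at 14.49 ± 0.03 and Fabp4 at 14.49 ± 0.02 (SD, n = 3). So were all 10 preadipocyte and fibroblast markers, including Dlk1 at 13.24 ± 0.10 and Col3a1 at 13.91 ± 0.02 (SD, n = 3). Of 7 measured markers of liver, a main site of cholesterol synthesis, 5 were not above background, including the albumin gene Alb at 6.61 ± 0.12 (SD, n = 3), and Cyp2e1 at 10.14 and Ttr at 8.49 were above it. For macrophages 5 of 8 markers were not above background, including Adgre1, while Lyz2 at 11.19, Cd14 at 8.83 and Csf1r at 8.70 were. For endothelial cells 5 of 6 were not, and Kdr at 8.29 was. Over all 18194 genes the share above background was 54.4%.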

How the data were processed

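RNA of 3T3-L1 adipocytes after glucose oxidase (3 samples) was measured on the mouse4302 Affymetrix array with 45101 probe sets. The authors corrected the background and normalised the deposited intensities with RMA in affyPLM. Its version, the arrays normalised together and any later scaling are not given in the sources used here. The deposited intensities are linear, and their medians were 127.6, 126.9 and 126.9 for replicates 1 to 3, so log2 was taken as deposited.

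Gene names came from the platform annotation, which gave 34958 probe sets 1 gene, 932 several and 9211 none, and only the first kind was used. By Entrez identifier, 34754 matched RefSeq genes of GRCm38.p6 and 0 symbols changed. Promoter windows came from RefSeq.

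With 1 group, no test between groups was possible, and counts, medians and SDs are descriptions beside the same values over all genes. The number of arrays limits the precision. The procedure was tested on simulated data, with a shift in replicate 2 far larger than the median excesses reported here. That test therefore does not bear on differences of this size. The members and lists were chosen with earlier results of these data known. By the rule for names, every measured member is given, with the value in each array for the 4 highest in each role, those with an SD over the 95th percentile and those whose probe sets disagree on being above background, and of other lists at most the 3 highest genes and those not above background. Srebf2, Mvk, Mvd and Tm7sf2 also have their value in each array, outside this rule and chosen after their values were seen. For the marker lists, defining genes and those at odds with the rest of their list are named. Protein identity between related members was planned and not computed, since no protein sequences were used here. Alternatives were the 99th and 90th percentiles of the receptor probe sets, a limit from keratin-associated and defensin genes, the median over a gene's probe sets, omission of probe sets with a cross-hybridisation suffix, centring, and omission of each array. Python 3.11.15 with pandas 2.3.3, numpy 2.4.6 and matplotlib 3.10.9 was used.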

Additional observations from a re-analysis of the deposited data

How the results depend on the processing

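No paired analysis was possible because there is only 1 group of samples. The number of members above background was 29 under each alternative but the 99th percentile, where it was 28. The median SD of the members, 0.043, ranged from 0.027 (replicate 2 left out) to 0.044 when single arrays were omitted. It was 0.052 when each gene was summarised by the median of its probe sets and 0.046 when each array was centred on its median. The number of members highest in replicate 2, 18, was 14 with probe set medians, 17 on omitting probe sets with a cross-hybridisation suffix and 19 on centring. The number highest in replicate 1, 3, was 6 with probe set medians. Centring on the median of genes above background, chosen after seeing the data, gave 9 for replicate 1, 14 for replicate 2 and 6 for replicate 3. With probe set medians, 19 of 29 levels moved by more than 1 SD and 14 by more than 1.5-fold, such as Fdps at 8.16 and Lrp1 at 8.33. On omitting probe sets with a cross-hybridisation suffix, 2 moved, Lss to 8.34 and Mvd to 9.73. For Fdps and Lrp1 the median took in a probe set below background, at 3.42 and 5.83. Why probe sets of the same gene differ was not tested. By the highest probe set of each gene, Npc1 is the member limited by a signal near background, with a mean 0.56 above the limit. Lower probe sets of Abcg1 and Lss were also near it, with means 0.58 and 0.76 above.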
